A study of Mus musculus with 6 samples.

Results

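The genes described here are the 39 that mark T cells and natural killer (NK) cells on the arrays, out of 37325 gene names carried by the array. They were taken as the gene probes whose name was one of 39 symbols, and they comprised 23 pan-T genes, 9 genes of cytotoxic and type 1 effector cells, 3 genes of regulatory T cells and 4 receptors of NK cells. All 39 were on the array, with 71 probes between them, and 31 could be tested. Colon tissue with tumors was taken from C57BL/6 mice in which AOM (azoxymethane, a carcinogen, 10 μg/g by intraperitoneal injection) and 2% DSS (dextran sulfate sodium, which inflames the colon) in the drinking water had induced colitis-associated tumors. All 6 mice, the controls included, carried AOM and DSS. The RG@M-γ-CD group (3 mice) was given by mouth 30 μg/g of mannose-modified γ-cyclodextrin loaded with regorafenib (RG), a multikinase inhibitor, which equals 10 μg/g of RG, and the PBS group (3 mice) was given buffer. Treatment lasted 21 days and observation 14 more days before the colons were taken, and each mouse gave 1 one-color Agilent array. The mice were males, bought at an age of 6 to 8 weeks. The tissue was taken whole, so fewer cells of a type and less RNA per cell cannot be told apart.

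T cells recognize antigen through a receptor whose signal is carried into the cell by the CD3 chains and the zeta chain, and is passed on by the kinase ZAP-70 to the scaffold LAT. Coreceptors and costimulatory receptors at the cell surface set the strength of that signal, and cytokine receptors such as the IL-7 receptor keep resting T cells alive. Cytotoxic T cells and NK cells kill target cells by releasing perforin and granzymes, while regulatory T cells, marked by the transcription factor FOXP3, restrain the response. In the colon these cells lie in the lamina propria, within the epithelium and in lymphoid follicles, and an inflamed or tumor-bearing colon holds all of them in varying amounts.

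Values are log2 intensities on a scale set by the array's own 75th percentile over gene probes, so a value of 0 is the level of that percentile and a difference of 1 is a doubling in intensity. A probe was counted as well above background when the scanner software marked at least 0.5 of its spots so, and between 49.6% and 55.2% of the 56605 gene probes passed this on each array. The lowest value well above background lay between −4.62 and −3.98 on the 6 arrays. Levels of different probes cannot be ranked against each other, since probes differ in how strongly they bind. The RG@M-γ-CD mice differed among themselves, with a correlation across the tested genes of 0.941 between replicates 1 and 2. The PBS arrays correlated with each other at 0.981 to 0.992. A supplementary heat map of the study clusters arrays 6, 7 and 8 (by the labels RG@M-γ-CD replicates 2 and 3 and PBS replicate 1) apart from arrays 5, 10 and 11 (RG@M-γ-CD replicate 1 and PBS replicates 2 and 3), so results are also given for that grouping. In the check of the labelled tissue, all 8 listed epithelial genes were tested and their summed level was 9.68 to 10.2 on all arrays. Here and below, a summed level is the log2 of the added intensities of a list's tested genes, so the brightest probes weigh most.

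Of the 39 genes, 29 were well above background on all 6 arrays and 2 (Ifng and Prf1) on 5, and the other 8 were at or near background. Cd3d, Cd3e and Cd3g, which define T cells, were well above background on all 6 arrays. The defining NK genes were not. Ncr1, the NK receptor NKp46, and Klrb1c, which encodes NK1.1, were well above background on 0 arrays, and the only NK receptors detected were Klrd1 and Klrk1, which activated T cells also carry. Tbx21 and Eomes, the transcription factors of type 1 and cytotoxic cells, and Trat1, a T-cell adapter, were also detected on 0 arrays. Cd8a and Gzmk were detected on 1 array each, Cd8a on PBS replicate 3 (−2.90, against −6.82 to −5.49 on the other 5) and Gzmk on RG@M-γ-CD replicate 2 (−3.99, against −6.41 to −5.17). Sh2d1a, the adapter SAP, was detected on 2 arrays at most, with levels of −4.12 and −3.69 on PBS replicates 1 and 2 and of −6.51 to −4.99 on the RG@M-γ-CD arrays. For these 8 genes no change can be given. Of the 71 probes, 26 were well above background on no array.

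The probe sequences of the genes with the smallest p-values are shown because the readout of each rests on 1 probe, and each run below is the stretch of 30 bases at the start of a probe of 60 bases, in mm9 coordinates of the array file.
Cd3g, chr9:44777898-44777927, minus strand: accctacaggtagactgcaagcagagagga
Lat, chr7:133507749-133507778, minus strand: aagaggaaggggtggatggagaggaagctc
Cd5, chr19:10792731-10792760, minus strand: gaccagtggggttggctttctccttggact
Cd6, chr19:10863921-10863950, minus strand: ggttattgcagccaagaccttaaacaggtc
Icos, chr1:61057071-61057100, plus strand: taactgccagtgtttgttttcatctcctgt
Il7r, chr15:9436852-9436881, minus strand: tgaaggacaaagtacatttatgggtgtggc
Cd247, detected on 6 of 6 arrays, chr1:167791567-167791596, plus strand: taggtactgtgtgtattgttctatgggtat
Cd247, detected on 0 of 6 arrays, chr1:167807278-167807307, plus strand: cctcaacttaggaaatgtataggatccttg
The pair of Cd247 probes shows how much the choice of probe decided. The first read 0.92 to 1.32 on the 6 arrays. The second, further along the chromosome, read −6.87 to −6.24, and the other 2 Cd247 probes were also at background on every array. The array file does not say whether each probe lies in coding sequence or in an untranslated region, and this was not looked up, because the annotation at hand is of another build.

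As labelled, the T and NK cell genes lay on the lower side in the RG@M-γ-CD group, and none passed the test. Of 31 tested genes 25 were lower and 6 were higher, with a median change of −0.40, beside a median of −0.0121 and 52.8% lower over all 19090 genes tested. At an adjusted p of 0.05 by limma 0 genes were called, 0% of all genes, and the smallest adjusted p of any gene was 0.818. At an unadjusted p of 0.05, 6 members were lower and 0 higher. Over all genes 254 (1.33%) were lower and 165 (0.864%) higher at that threshold. The 6 were Cd3g, Lat, Cd5, Cd6, Icos and Il7r, all of them pan-T genes. The 3 arrays of one group lay wholly below those of the other in 5 members (these 6 without Cd6) and wholly above in 0, beside 2.19% and 2.38% of all genes. The number at an unadjusted p of 0.05 depended on single mice, and so did that over all genes. It was 15 members without RG@M-γ-CD replicate 1 (11.9% of all genes), 1 (Nkg7) without replicate 2 (2.59%), 0 without replicate 3 (1.14%) and 2 without PBS replicate 1 (2.23%). By the methods' t-test it was 0 (2% of all genes). The slide holds the RG@M-γ-CD arrays and PBS replicate 1 in one row and the other PBS arrays in the next. A fit with the row as a block therefore compares the RG@M-γ-CD arrays with PBS replicate 1 alone. It cannot tell the treatment from what is particular to that mouse. Of the 6 arrays, PBS replicate 1 had the highest value of Cd2, Cd8b1, Il2ra and Lat and the lowest of Prf1. With the row as a block the median was −0.57 and 5 members were at that threshold, with Cd2, Cd8b1, Il2ra and Lat lower (−2.32 to −1.14) and Prf1 higher (1.04), beside 2.93% of all genes.

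**Figure D1:**
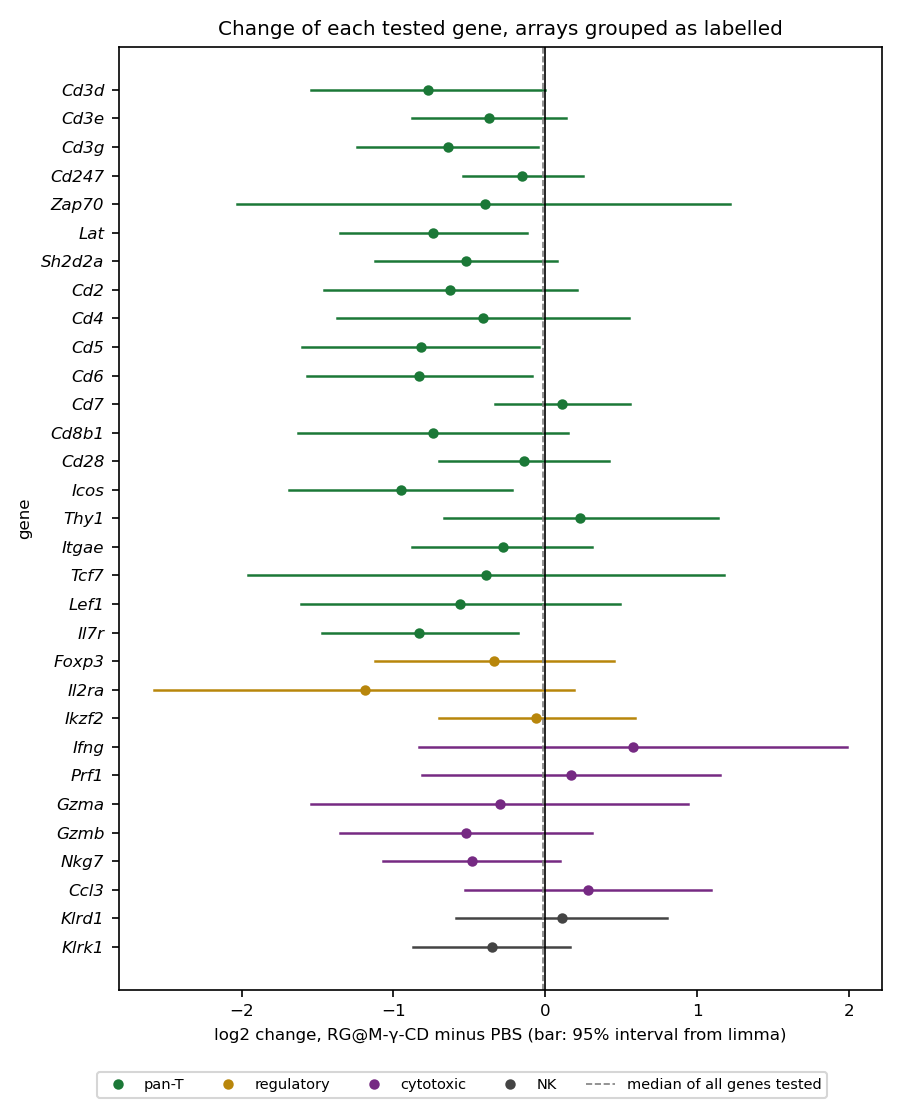
Change of each of the 31 tested genes, as the log2 level in RG@M-γ-CD minus that in PBS (horizontal axis), with genes on the vertical axis. Points are the change and bars the 95% interval from limma, colored by pan-T, regulatory, cytotoxic and NK genes, and the dashed line is the median of all genes (−0.0121). Most pan-T points lie left of 0, the cytotoxic points lie on both sides, and 6 pan-T bars do not reach 0. Among the cytotoxic points right of 0, Ifng and Prf1 were tested through the RG@M-γ-CD group alone.

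The T-cell receptor complex and its proximal signaling genes, 7 of 9 tested, were all lower as labelled (median −0.52). Cd3d, a CD3 chain, read −0.40, −1.35 and −1.61 on RG@M-γ-CD replicates 1 to 3 and −0.26, −0.42 and −0.38 on PBS replicates 1 to 3. RG@M-γ-CD replicates 2 and 3 were low, whereas replicate 1 lay among the PBS arrays, and the change of −0.77 (SE 0.32) had an unadjusted p of 0.0505. A second Cd3d probe gave −0.76. Cd3g, another CD3 chain, read −1.68, −2.10 and −2.59 against −1.53, −1.47 and −1.44. The arrays did not overlap, with replicate 1 close to the PBS arrays, and the change of −0.64 was 1.56-fold lower (95% interval −1.24 to −0.05, unadjusted p = 0.0385, adjusted p = 1 by limma). Cd3e read −0.54, −1.08 and −0.95 against −0.72, −0.25 and −0.48, a change of −0.37 with overlapping arrays. The start sites of Cd3g and Cd3d lie 1355 bases apart on chromosome 9 and are read in opposite directions, and Cd3e is their neighbor.

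Lat, the scaffold that ZAP-70 phosphorylates, read −2.66, −3.10 and −3.21 against −1.85, −2.32 and −2.60. The arrays did not overlap, and the change was −0.74 (95% interval −1.35 to −0.12, unadjusted p = 0.0259, adjusted p = 1 by limma). The adapter Sh2d2a had a change of −0.52 with 1 overlapping pair of arrays. Cd247, the zeta chain, differed least, with 1.03, 0.96 and 1.01 against 0.92, 1.21 and 1.32 (change −0.15, 95% interval −0.54 to 0.25). That readout rests on 1 probe, as the other Cd247 probes were at background on every array. Whether the probe reports zeta chain RNA was not tested. Zap70, the kinase, stood apart from its neighbors in the pathway. It read 2.92, 0.07 and 0.96 in RG@M-γ-CD and 1.66, 1.75 and 1.75 in PBS, so that 1 treated mouse was above and 2 were below a tight control group. The change of −0.40 had a 95% interval of −2.03 to 1.22, and a second Zap70 probe had the same order, from 1.09 down to −1.99.

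Of the surface receptors and coreceptors, 10 of 11 were tested, 8 lower and 2 higher (median −0.52). Icos, a costimulatory receptor of activated T cells, had the smallest p-value of the members. It read −1.94, −2.82 and −3.06 against −1.66, −1.76 and −1.53. All 3 RG@M-γ-CD arrays lay below the PBS arrays, and the level was 1.94-fold lower (change −0.95, SE 0.30, unadjusted p = 0.0184, adjusted p = 1 by limma). Cd28, a costimulatory receptor encoded near Icos (their probes are 227 kb apart), read −2.87, −2.76 and −3.19 against −2.59, −2.61 and −3.21. Its change was −0.14 (95% interval −0.70 to 0.42). Cd5, a receptor that dampens T-cell receptor signals, read −1.23, −2.49 and −2.05 against −1.0, −1.17 and −1.14, with no overlap (change −0.82, unadjusted p = 0.0412 by limma). Cd6, its relative, whose probe lies 71.1 kb away, read −1.03, −2.10 and −1.86 against −0.68, −0.73 and −1.10 (change −0.83, unadjusted p = 0.0331 by limma), with replicate 1 above the lowest PBS array. Both genes thus had the same 2 low mice.

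The coreceptors varied widely among the control mice. Cd4 read 0.14, −0.36 and −0.43 in RG@M-γ-CD and −0.32, 1.07 and −0.16 in PBS, so that the change of −0.41 (95% interval −1.37 to 0.55) rested on PBS replicate 2. Without that array it was 0.03. The other 2 Cd4 probes were well above background on 0 arrays, so the readout rests on 1 probe. Cd8b1, the beta chain of CD8, read −3.31, −3.49 and −3.51 against −2.12, −2.43 and −3.54 (change −0.74, 95% interval −1.63 to 0.15). The RG@M-γ-CD arrays and PBS replicate 3 were low, and the other PBS arrays were high. Cd2, an adhesion receptor, had the same kind of spread in PBS, from −0.92 to 0.37 (change −0.63). Itgae, the integrin chain CD103 of intraepithelial T cells, had a change of −0.28 (95% interval −0.88 to 0.31). Cd7 (0.11) and Thy1 (0.23) were the 2 on the higher side. Thy1, which stromal cells also carry, read 1.31, 2.72 and 2.37 against 2.13, 1.92 and 1.65. Unlike Cd3d, it was lowest of the 6 arrays on RG@M-γ-CD replicate 1 and highest on replicate 2.

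The 3 genes of naive and memory T cells were lower in the mean (median −0.56), in 2 different patterns. Il7r, the IL-7 receptor chain, read −0.53, −1.37 and −1.43 against −0.29, −0.40 and −0.17. It followed the CD3 genes, without overlap and 1.77-fold lower (change −0.83, 95% interval −1.47 to −0.18, unadjusted p = 0.0202, adjusted p = 1 by limma). Tcf7 and Lef1, transcription factors of naive T cells that also act in Wnt signaling in intestinal epithelium, followed Zap70. Tcf7 read 1.57, −1.22 and 0.51 in RG@M-γ-CD against 0.71, 0.69 and 0.63. Lef1 read 3.05, 1.27 and 1.80 against 2.69, 2.57 and 2.53. In both genes replicate 1 was the highest and replicate 2 the lowest of the 6 arrays, and the 95% intervals of the change reached from −1.96 to 1.18 and from −1.61 to 0.49.

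**Figure D2:**
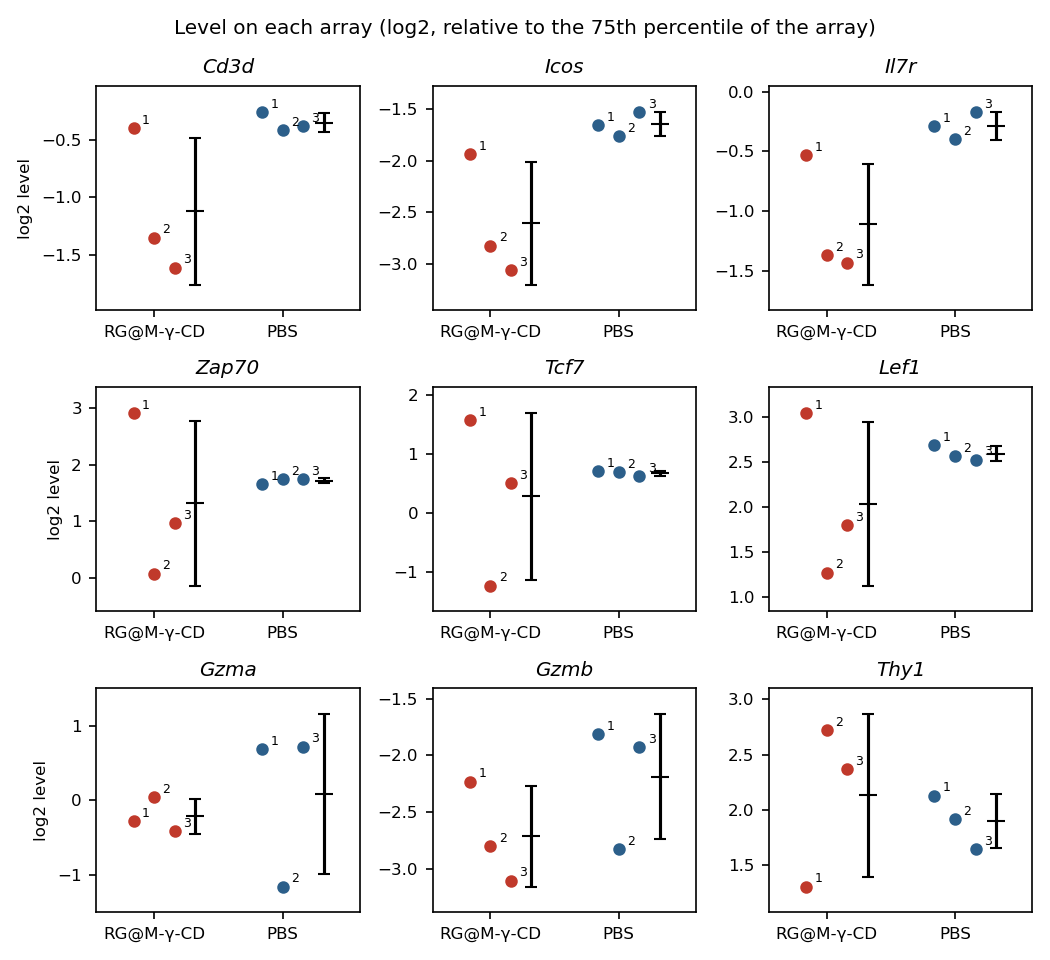
Log2 level of 9 genes on each array, relative to the 75th percentile of the array (vertical axis), for RG@M-γ-CD (red) and PBS (blue). Points are mice with their replicate number, and the bar is the mean with its SD over 3 arrays. In Cd3d, Icos and Il7r replicates 2 and 3 of RG@M-γ-CD lie low, in Zap70, Tcf7 and Lef1 replicate 1 lies above all PBS arrays, and in Gzma and Gzmb the wide spread is that of PBS.

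Zap70, Tcf7 and Lef1 had RG@M-γ-CD replicate 1 as the highest of 6 arrays, replicate 2 as the lowest and replicate 3 as second lowest. The order was read from these genes, so their holding it was fixed in advance. Of the other tested members only Itgae held it, beside 1005 of 19087 genes (5.27%). The same order was held by 7 of the 8 listed Wnt target genes of the epithelium. Among them Lgr5 read 3.80, 1.25 and 2.06 against 2.90, 2.94 and 3.38. The part of the epithelium in the levels of these 4 members was not tested.

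Regulatory T-cell genes gave no clear difference. Foxp3 read −2.88, −3.49 and −4.15 in RG@M-γ-CD and −3.08, −3.34 and −3.09 in PBS. Replicate 1 was the highest of all 6 arrays and replicate 3 the lowest, near the background limit (change −0.34, 95% interval −1.12 to 0.45). Il2ra, the high-affinity IL-2 receptor chain, had the largest change of the members at −1.19, but with a 95% interval of −2.58 to 0.19. It read −2.51, −3.56 and −3.31 against −0.81, −3.02 and −1.98, so that the mean was carried by PBS replicate 1. Ikzf2, the transcription factor HELIOS, read −0.51, −0.34 and −1.28 against −0.61, −0.76 and −0.60 (change −0.06, 95% interval −0.70 to 0.59). A second Ikzf2 probe disagreed in the order of the mice, with −2.52, −0.39 and −2.42 against −1.05, −2.11 and −1.86.

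The cytotoxic genes lay on both sides of 0 in the labelled comparison. Of 9 genes 6 were tested, 3 lower and 3 higher, with a median of −0.06, and 0 were at an unadjusted p of 0.05. That median was −0.39 over the genes well above background on all 6 arrays and −0.52 with the slide row as a block, where the NK median was −0.37, and it turned to 0.28 in the heat-map grouping. No test of the difference between the lists was made. Among the 3 higher genes, Ifng and Prf1 were well above background on only 2 PBS arrays. They entered the test through the RG@M-γ-CD group alone, so their side depends in part on that filter. Gzma, granzyme A, read −0.28, 0.04 and −0.41 in RG@M-γ-CD and 0.69, −1.16 and 0.72 in PBS. The treated mice were alike, and PBS replicate 2 lay far below the other PBS mice (change −0.30, 95% interval −1.54 to 0.94). Gzmb, granzyme B, had the same low PBS mouse, with −2.23, −2.80 and −3.10 against −1.81, −2.82 and −1.93 (change −0.52, 95% interval −1.35 to 0.31). Prf1, perforin, read −3.26, −3.94 and −3.44 against −4.59, −3.46 and −3.11, and on PBS replicate 1 it was not well above background. Ifng, the type 1 cytokine, was not well above background on PBS replicate 2, where it read −5.98, against −4.16 to −3.62 on the other 5 arrays. Leaving out that array took its change from 0.58 to −0.12. Nkg7, a granule protein, read −3.14, −2.30 and −2.65 against −2.08, −2.37 and −2.19 (change −0.48, 95% interval −1.07 to 0.10), and the chemokine Ccl3 had a change of 0.28 (95% interval −0.53 to 1.09).

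The 2 NK receptors tested had changes on opposite sides of 0, and both 95% intervals included 0. Klrd1, which encodes CD94, read −2.98, −2.61 and −2.93 in RG@M-γ-CD and −2.68, −3.55 and −2.61 in PBS (change 0.11, 95% interval −0.59 to 0.80). Klrk1, which encodes NKG2D and whose probe lies 14 kb away, read −3.72, −4.06 and −3.88 against −3.32, −3.91 and −3.37 (change −0.35, 95% interval −0.87 to 0.16). Klrk1 lay near the background limit on RG@M-γ-CD replicate 2 (limit −4.16) and on PBS replicate 2 (limit −3.98). In both genes, PBS replicate 2 was the lowest PBS array, as it was in Gzma, Gzmb, Ifng, Nkg7 and Ccl3. Of the 8 tested cytotoxic and NK genes, 4 had their lowest value of the 6 arrays on PBS replicate 2 and 5 their highest on PBS replicate 1. The matching shares over all genes were not computed. PBS replicate 2 was also the array with the fewest probes well above background, 28103 against 29451 to 31219 on the other arrays, and the part of this in the low values was not tested.

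**Figure D3:**
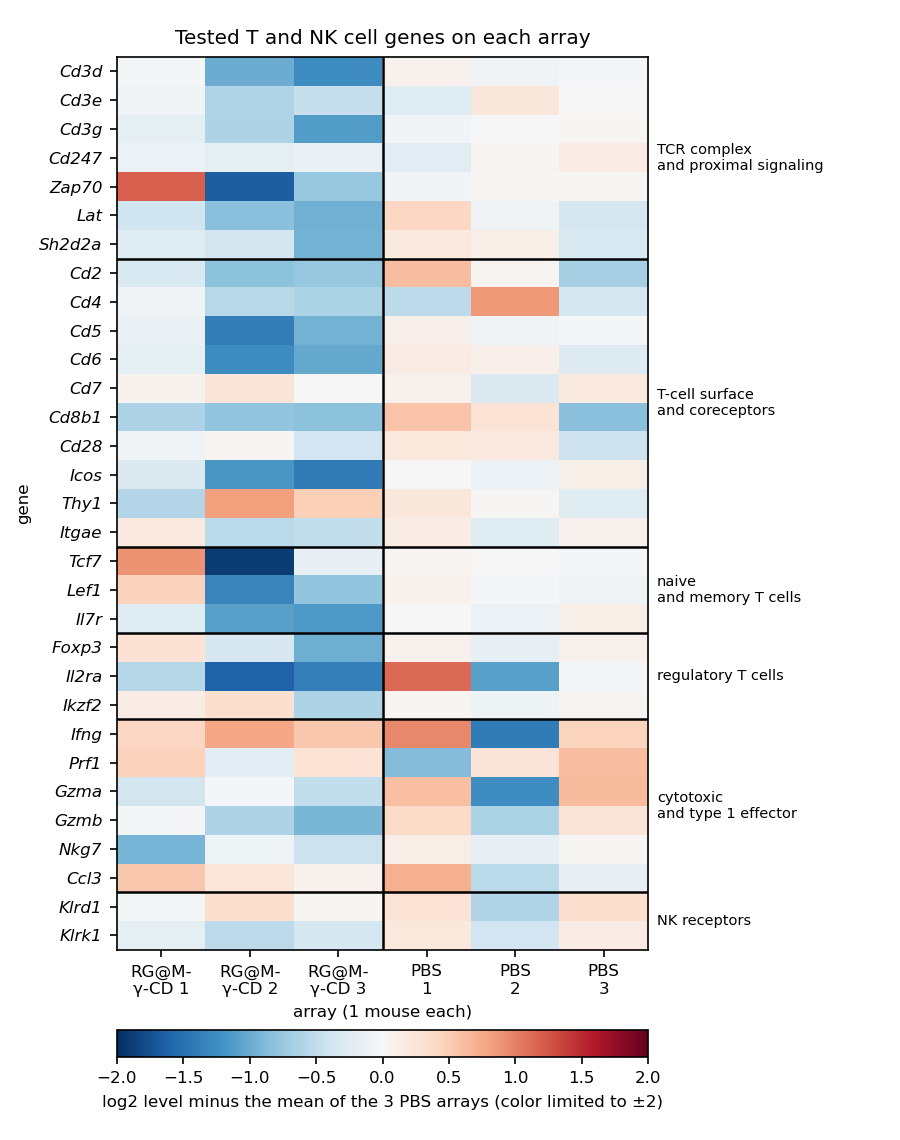
Log2 level of the 31 tested genes on each array minus the mean of the 3 PBS arrays (color, limited to 2 in either direction), with genes in rows by role and arrays in columns. Blue fields collect in pan-T genes on RG@M-γ-CD replicates 2 and 3, whereas RG@M-γ-CD replicate 1 is pale in most rows.

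The low pan-T values belonged to 2 of the 3 treated mice. Of the 20 tested pan-T genes 15 lay below every PBS array on RG@M-γ-CD replicate 2, 15 on replicate 3 and 6 on replicate 1. Over all genes the shares were 40.4%, 19.7% and 22.7%, so the share on replicate 2 was high over all genes as well. The median difference of the pan-T genes from the PBS mean was −0.12, −0.80 and −0.78 on replicates 1 to 3, against −0.04 to 0.09 on the PBS arrays. Without replicate 1, which left 2 arrays in that group, the 15 members at an unadjusted p of 0.05, beside 11.9% of all genes, were all lower but Thy1. One member then passed the adjusted threshold, Icos (change −1.29, adjusted p = 0.0459 by limma), beside 39 genes called lower (0.204%). Without both replicate 1 and PBS replicate 1, an alternative chosen after seeing the data, 0 genes passed.

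Markers of other cells differed along with the pan-T genes, and 0 of them passed the adjusted threshold. All 8 pan-leukocyte genes were lower as labelled (median −0.62), and their summed level was 3.75 to 4.54 in RG@M-γ-CD and 4.14 to 5.23 in PBS. All 8 macrophage and monocyte genes were lower (median −0.44), with summed levels of 7.39, 6.23 and 6.36 in RG@M-γ-CD and 7.2 to 7.43 in PBS, so that here too replicate 1 lay with the controls. Of 8 neutrophil genes 7 were lower (median −0.82), and of 8 dendritic cell genes 5 were tested, all lower (median −0.68). Smooth muscle genes went the other way in the same mice. All 7 tested were higher in the mean (median 0.91), with summed levels of 6.69, 9.38 and 9.64 on RG@M-γ-CD replicates 1 to 3 and 7.62 to 7.84 in PBS. Replicates 2 and 3 were thus high in muscle genes and low in T-cell genes, and replicate 1 was low in muscle genes. What part the share of muscle in the tissue had in the T-cell values was not tested.

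B-cell genes varied most among the controls. The summed level of the 6 tested was 4.26, 3.03 and 0.59 on PBS replicates 1 to 3 and 1.55 to 2.62 in RG@M-γ-CD, with Cd79a and Blk not tested. Among the members, Cd2, Cd8b1, Lat and Il2ra also had their highest value on PBS replicate 1, as did 14 of the 31 in all. The share of all genes that were highest on that array was not computed. It was also the array with the most probes well above background (31219). The part of lymphoid follicles in the values of these members was not tested. Over the PBS arrays Cd3d, Cd3g, Cd5 and Il7r had SDs of 0.05 to 0.12 and the B-cell genes SDs of 1.74 to 2.56. The SDs of Lat, Cd2, Cd8b1 and Cd4 there were wider, at 0.38 to 0.76.

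**Figure D4:**
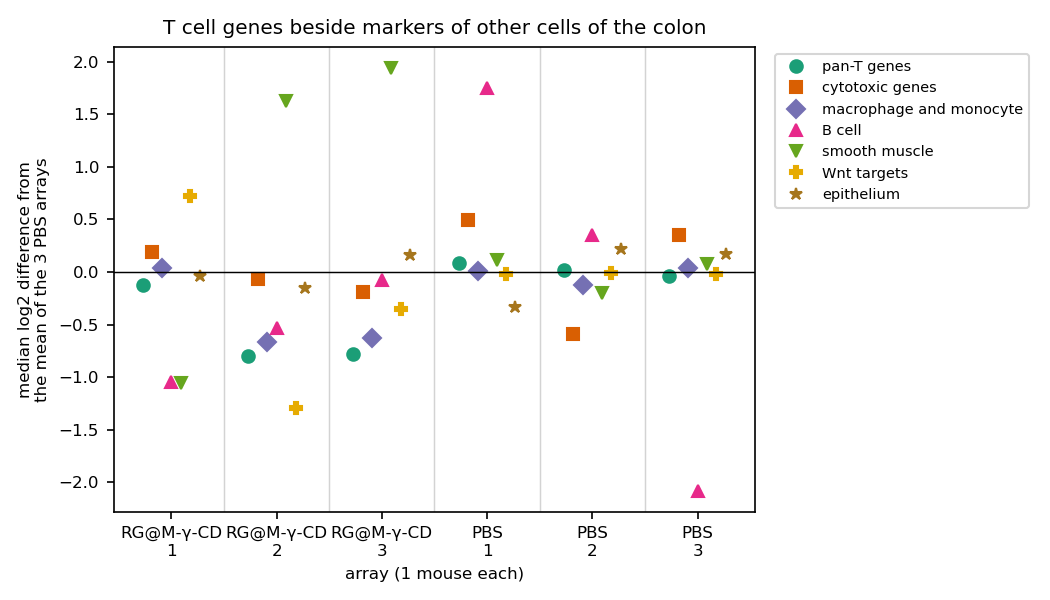
Median log2 difference from the mean of the 3 PBS arrays (vertical axis) for 7 gene lists on each array (horizontal axis). Pan-T and macrophage genes lie below 0 on RG@M-γ-CD replicates 2 and 3, where smooth muscle genes lie above 1, and on replicate 1 the Wnt targets lie at 0.72 and smooth muscle at −1.06.

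Genes that act with the members lay mostly on the lower side too, where 52.8% of all genes lay. Of 20 further genes of T-cell receptor signal transduction 17 were tested, 14 lower and 3 higher (median −0.23). Lck, the kinase that starts the signal, read 1.45, 0.37 and 0.91 against 1.52, 1.44 and 1.36, again with replicates 2 and 3 low. It was picked as an example (unadjusted p = 0.107 by limma), and other genes of the list, such as Nfatc1 (change 0.05), lacked that pattern. Of 20 further cytotoxic and NK genes 11 were tested, 9 lower and 2 higher (median −0.27). At an unadjusted p of 0.05, 3 of them were lower and 0 higher, beside 1.33% and 0.864% of all genes. These were Cst7, the chemokine Ccl5 (change −0.91) and Il2rb, an IL-2 receptor chain (change −0.87). Cst7, the protease inhibitor cystatin F, read −3.43, −3.95 and −3.84 against −2.41, −2.54 and −3.12. Its change was −1.05 (unadjusted p = 0.00489, adjusted p = 1 by limma).

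Grouped as in the heat map, arrays 6, 7 and 8 minus arrays 5, 10 and 11, the pan-T genes were lower in 16 of 20. At an adjusted p of 0.05, 5 of 19298 genes were called (0.0259%), none of them a member. Of the 31 members 22 were lower (median −0.22), beside a median of −0.12 and 63.8% lower over all genes. At an unadjusted p of 0.05, Cd3e (−0.49), Zap70 (−1.24) and Prf1 (−0.71) were lower and Thy1 (0.78) was higher, beside 8.79% of all genes lower and 7.76% higher. The 20 pan-T genes had a median of −0.52, whereas the cytotoxic genes had one of 0.28 and the NK receptors one of 0.11. The genes Cd3g, Lat, Cd5, Cd6, Icos and Il7r stayed on the lower side (changes of −0.77 to −0.20). This grouping shares RG@M-γ-CD replicates 2 and 3 on its first side with the labelled one.

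The sequence before the transcription start was compared between the members, to show what they share beyond their cell type. RefSeq promoters of GRCm38.p6 were at hand for 26 of the 39, and the 250 bases before the most upstream start were searched on both strands for the core letters bound by RUNX factors (TGTGGT), TCF and LEF factors (CTTTGA) and ETS factors (AGGAAG). These letters stand in 14%, 13.8% and 29.5% of all 32851 windows and in 9, 4 and 12 of the 26 members. The RUNX letters were unevenly spread among the members, in 8 of 12 cytotoxic and NK genes (Ccl3, Gzma, Gzmb, Klrb1c, Klrk1, Ncr1, Nkg7 and Prf1) and in 1 of 14 pan-T and regulatory genes (Trat1). The most upstream window of Tcf7, counted here without a match, may reach into coding sequence. Of the other listed starts, not counted here, those of Tcf7, Lef1 and Foxp3 had none of the RUNX letters. That of Ncr1 and 1 of Zap70, a pan-T gene, had them. The members without a promoter at hand were pan-T or regulatory genes except Klrd1, so that side was searched less fully. The split was chosen after the matches were seen, and a match is not a bound site. The windows of 4 cytotoxic genes and of the neighbors Cd3d and Cd3g are printed because they show both sides of this, with the matching letters of any of the 3 motifs in capitals.
Gzma, chr13:113100982-113101231, minus strand: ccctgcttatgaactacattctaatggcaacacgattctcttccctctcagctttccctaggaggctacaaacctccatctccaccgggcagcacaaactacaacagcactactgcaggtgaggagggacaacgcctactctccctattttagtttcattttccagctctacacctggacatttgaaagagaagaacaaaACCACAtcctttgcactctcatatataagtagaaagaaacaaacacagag
Gzmb, chr14:56262335-56262584, minus strand: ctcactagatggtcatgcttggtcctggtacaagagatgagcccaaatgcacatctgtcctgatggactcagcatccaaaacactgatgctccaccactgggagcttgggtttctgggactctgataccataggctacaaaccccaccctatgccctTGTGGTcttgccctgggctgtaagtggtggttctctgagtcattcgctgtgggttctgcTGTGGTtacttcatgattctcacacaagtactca
Prf1, chr10:61297586-61297835, plus strand: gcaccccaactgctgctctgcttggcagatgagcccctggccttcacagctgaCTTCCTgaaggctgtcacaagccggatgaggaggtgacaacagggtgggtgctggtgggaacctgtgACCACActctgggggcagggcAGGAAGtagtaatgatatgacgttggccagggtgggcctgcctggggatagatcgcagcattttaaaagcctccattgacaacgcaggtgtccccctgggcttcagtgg
Nkg7, chr7:43436888-43437137, plus strand: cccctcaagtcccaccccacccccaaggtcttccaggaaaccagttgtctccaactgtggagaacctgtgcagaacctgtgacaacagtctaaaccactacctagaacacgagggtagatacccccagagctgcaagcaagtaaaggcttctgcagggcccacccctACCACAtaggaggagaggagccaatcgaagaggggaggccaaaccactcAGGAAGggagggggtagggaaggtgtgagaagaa
Cd3d, chr9:44981536-44981785, plus strand: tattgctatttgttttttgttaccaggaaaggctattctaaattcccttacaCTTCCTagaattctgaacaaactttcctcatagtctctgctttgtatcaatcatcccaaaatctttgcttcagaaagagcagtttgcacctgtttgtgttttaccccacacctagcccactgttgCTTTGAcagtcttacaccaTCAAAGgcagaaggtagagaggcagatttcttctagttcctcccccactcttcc
Cd3g, chr9:44980432-44980681, minus strand: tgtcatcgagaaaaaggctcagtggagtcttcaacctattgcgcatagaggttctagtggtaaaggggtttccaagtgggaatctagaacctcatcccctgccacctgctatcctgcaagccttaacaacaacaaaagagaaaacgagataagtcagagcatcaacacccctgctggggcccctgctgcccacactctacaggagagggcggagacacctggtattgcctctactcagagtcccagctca
Gzmb holds the RUNX letters at 2 places and Gzma, Prf1 and Nkg7 at 1 each. Prf1 also holds the ETS letters at 2 places and Nkg7 at 1. Cd3d holds the TCF and LEF letters at 2 places and the ETS letters at 1, and Cd3g holds none of the 3 although it shared the pattern of Cd3d over the arrays.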

How the data were processed

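Colon tissue with tumors of 6 mice was measured on 6 arrays, 3 in each group, all on 1 slide. Samples were grouped by the labels. The intensity of each spot was deposited by the authors as read by Agilent Feature Extraction 10.7.1.1, background-subtracted and not normalized between arrays. A table of log2 values, deposited by the authors and read as quantile normalized, was used as an alternative. In R 4.3.3 with the data.table package (1.17.8), control spots and outlier spots (114 to 168 gene spots per array) were left out, spots of a probe were averaged, and the 75th percentile of each array was subtracted from the log2 intensity. No gene spot was saturated. Symbols were taken through the accession for 32994 of 56605 probes, and the others kept the file's name. A probe entered the test if either group had it well above background on its 3 arrays, and each gene was read from its brightest such probe. Fits were made with limma 3.58.1 (lmFit, eBayes) with Benjamini-Hochberg adjustment over 19090 genes and a threshold of 0.05. The fit was tested on simulated data. Every member was named, and of the 2 further T-cell and cytotoxic lists the genes at an unadjusted p of 0.05, of which 1 is not reported here. Lck was added as an example. Genes of the cell type lists are given as summed levels and medians, with Lgr5 as an example. The members, gene lists, motifs and tests were chosen with earlier results of these data known. Tried as alternatives were quantile normalization, normexp correction (offset 50), the authors' table, other filters on dim probes (none, or detection on 6 arrays), averaging the probes of a gene, keeping outlier spots, a block for the replicate number or for the slide row, the methods' t-test, the heat-map grouping, and each array left out in turn. With 3 arrays in a group, their number limits the precision.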

Additional observations from a re-analysis of the deposited data

How the results depend on the processing

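By limma 0 genes, members included, passed the adjusted threshold under each alternative except the heat-map grouping (5 genes, 0 members) and the fit without RG@M-γ-CD replicate 1 (168 genes, 129 higher and 39 lower, with Icos as the 1 member). Leaving out each array gave 0 to 168 genes and 0 to 1 members. The methods' t-test likewise called 0 after adjustment, with 381 genes and 0 members at an unadjusted p of 0.05, against 419 genes and 6 members by limma. The median change of the tested members was below 0 under every alternative, from −0.65 (without replicate 1 of RG@M-γ-CD) to −0.32 when single arrays were left out. The pan-T median also stayed below 0, at −0.83 to −0.42 when single arrays were left out.

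Several small changes turned direction. With normexp, Prf1 was −0.03 and Klrd1 −0.06. The cytotoxic median was 0.03 with no filter on dim probes and −0.39 with probes detected on all 6 arrays. In the heat-map grouping the cytotoxic median was 0.28, the NK median 0.11, Cd8b1 0.05, Cd28 0.05, Prf1 −0.71, Gzma 0.34 and Nkg7 0.22. With the slide row as a block, which compares the RG@M-γ-CD arrays with PBS replicate 1 alone, the cytotoxic median was −0.52 and the NK median −0.37, without a turn, and Cd247 was 0.08, Cd4 0.11, Ifng −0.37, Ccl3 −0.42 and Klrd1 −0.17. Leaving out single arrays, or replicate 1 of both groups (chosen after seeing the data), gave ranges across 0 of −1.24 to 0.22 for Zap70, −1.03 to 0.36 for Tcf7, −0.06 to 0.76 for Thy1, −0.20 to 0.31 for Klrd1, −0.24 to 0.23 for Ikzf2, −0.41 to 0.48 for Prf1, −0.92 to 0.03 for Gzma, −0.85 to 0.03 for Cd4, −0.03 to 0.21 for Cd7, −0.12 to 1.15 for Ifng and −0.34 to 0.11 for the cytotoxic median. The cause was not tested. Nothing in the labels says that the replicate numbers pair the mice. The correlations of their deviations were −0.25, −0.233 and 0.136, which cannot exclude a pairing. With the number as a block 0 genes were called and the members' median was −0.40. Signal over background kept 8 members from being tested.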
